A study of Mus musculus with 6 samples.

Results

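The Krüppel-like factors are a family of zinc finger transcription factors, and 9 of their genes were examined in microglia with and without overexpression of PGC-1α: Klf2, Klf3, Klf4, Klf6, Klf7, Klf9, Klf10, Klf12 and Klf13. They were found on the array as every non-control probe whose transcript accession maps to a listed gene, which gave 14 probes for 9 of the 23462 genes named on it. Of the 14 probes, 12 were well above background throughout at least 1 group and were tested, and each of the 9 genes had at least 1 such probe. The remaining probes, A_55_P2500722 for Klf10 and A_52_P215152 for Klf12, did not rise well above background on any array.

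Microglia came from male mice aged 10 weeks, per the labels, and were taken from the brain through the surface receptor P2RY12 with magnetic beads. The PGC-1αf/f genotype combines a PGC-1α allele flanked by loxP sites with a gene for eGFP. mPGC-1α mice carry in addition a tamoxifen-inducible Cre recombinase expressed from the Cx3cr1 locus, and their controls were PGC-1αf/f littermates (n = 3 arrays each). Cx3cr1 is also active in other mononuclear phagocytes, such as border macrophages and blood monocytes, and the study's methods set a waiting period after tamoxifen to limit induction to microglia. Tamoxifen was given before experiments, and to both genotypes in the study's stroke experiments, while the arrayed controls are not mentioned separately.

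All Krüppel-like factors end in a conserved block of zinc fingers that binds GC-rich and CACCC sequences, and they differ in the region before it. In one class (here Klf2, Klf4, Klf6 and Klf7) that region recruits acetyltransferases, in another (Klf3 and Klf12) it binds the corepressor CtBP, and in another (Klf9, Klf10 and Klf13) the corepressor Sin3a. In the vessel wall and in leukocytes, Klf2 and Klf4 are known as brakes on inflammatory gene expression, and the kinase ERK5 induces both through MEF2 factors. In macrophages, Klf6 is known for the opposite, a proinflammatory role. Klf2, Klf4 and Klf6 are also early-response genes, induced within minutes to hours by growth factors, cell stress and tissue dissociation.

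The sequence just before the transcription start is shown for the members whose groups did not overlap in the comparison below (Klf2, Klf4 and Klf13) and for Klf6, an early-response member whose groups overlapped. Each is the run of 250 bases that ends at the start in the RefSeq promoter table (GRCm38.p6), read 5′ to 3′ on the gene's strand. Capitals mark matches, on either strand, to CACCC, to the GC box GGGCGG, which may overlap it, and to the MEF2 consensus.
Klf2, chr8:72318812-72319061, plus strand: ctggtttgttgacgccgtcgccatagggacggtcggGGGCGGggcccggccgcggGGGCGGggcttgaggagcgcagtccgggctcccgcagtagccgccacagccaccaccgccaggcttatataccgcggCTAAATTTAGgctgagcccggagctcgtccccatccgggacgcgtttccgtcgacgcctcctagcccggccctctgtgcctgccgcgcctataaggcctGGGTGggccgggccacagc
Klf4, chr4:55532476-55532725, minus strand: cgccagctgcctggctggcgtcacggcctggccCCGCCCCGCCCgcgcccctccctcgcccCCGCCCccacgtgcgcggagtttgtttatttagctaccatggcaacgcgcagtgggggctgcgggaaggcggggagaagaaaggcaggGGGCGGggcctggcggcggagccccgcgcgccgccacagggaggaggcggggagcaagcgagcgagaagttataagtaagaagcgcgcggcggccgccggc
Klf13, chr7:63938916-63939165, minus strand: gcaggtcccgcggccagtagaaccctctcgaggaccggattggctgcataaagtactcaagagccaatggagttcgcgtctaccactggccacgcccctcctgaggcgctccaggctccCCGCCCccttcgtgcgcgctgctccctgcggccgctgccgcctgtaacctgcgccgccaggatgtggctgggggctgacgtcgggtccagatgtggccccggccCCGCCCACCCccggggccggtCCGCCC
Klf6, chr13:5861239-5861488, plus strand: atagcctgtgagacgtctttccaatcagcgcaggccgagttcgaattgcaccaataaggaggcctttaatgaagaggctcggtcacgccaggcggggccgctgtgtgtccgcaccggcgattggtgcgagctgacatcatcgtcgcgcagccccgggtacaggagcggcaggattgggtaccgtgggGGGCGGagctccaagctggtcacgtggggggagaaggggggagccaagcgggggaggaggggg

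Windows were found for 8 of the 9 members, all but Klf10. The MEF2 consensus was matched in 1 of the 8, Klf2, at position -118 counted from the start, and in 3.01% of the 27025 windows of that length in the table. CACCC was matched in 6 of the 8 members (51.3% of all windows), GGGCGG in 6 (32.9%) and TGACG, the core of a cyclic AMP response element, in 5 (17.9%). TGACG was present in the windows of Klf2, Klf4 and Klf13, whose groups did not overlap, and also in those of Klf9 and Klf12, whose groups did. The CArG box, bound by serum response factor, was matched in 0 of the 8 and in 1.4% of all windows. These matches describe letters only, and binding was not measured here.

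Signals are given as log2 intensity minus the 75th percentile of the array, so that a value of 0 equals that percentile. Probes hybridise with different strength, and a level is therefore compared only with the same probe on other arrays. On each array, between 27025 and 30272 of 59305 spots were well above background and 0 were saturated. All 12 microglial marker genes examined (among them P2ry12, Tmem119, Csf1r and Cx3cr1) were well above background on every array of both groups. PGC-1α itself (Ppargc1a, probe A_51_P279038) ranged from -1.21 to 0.19 in controls and from 0.08 to 0.57 in mPGC-1α microglia. Its groups overlapped, and the difference was 0.80 (SE 0.35, adjusted p = 0.306 in limma). A dimmer probe for Ppargc1a (A_55_P2745394) ranged from -2.37 to -1.21 in controls and from -1.67 to -0.56 in mPGC-1α microglia. The groups overlapped there too, with a difference of 0.59 (SE 0.38, adjusted p = 0.445 in limma). The 6 arrays lay on 1 slide, PGC-1αf/f in row 1 and mPGC-1α in row 2, so slide row and group cannot be told apart. The arrays numbered 3 stood apart in both groups. PGC-1αf/f replicate 3 correlated with the other arrays at a mean r of 0.928, against 0.962 to 0.972 for the rest, and had low signals for blood and endothelial genes. On mPGC-1α replicate 3, 0 of 7 Y-linked probes were well above background, against 5 or 6 on the others, although it is labelled male. Results are therefore also given without these arrays.

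Of the 9 members, Klf2, Klf4 and Klf13 had higher signals on every mPGC-1α array than on any PGC-1αf/f array, and Klf3, Klf6, Klf7, Klf9, Klf10 and Klf12 overlapped between the groups. Klf4 was 2.49-fold higher in mPGC-1α microglia and was the member with the largest difference. After adjustment over all tested probes, 0 of the 9 members passed an adjusted p of 0.05 in limma, a threshold that 0.0792% of all tested probes passed. At an unadjusted p under 0.05, 3 of 9 members were higher, against 8.16% of all 12302 genes, and 0 were lower, against 5.71%. No overlap with mPGC-1α higher was found for 3 of 9 members, against 12.2% of all genes, and with mPGC-1α lower for 0, against 10.8%. A change of at least 2-fold upward with an unadjusted p under 0.05 was found for 1 member, Klf4, against 2.47% of all genes. By their means, 5 members were higher and 4 lower in mPGC-1α microglia. The median difference of the 9 members was 0.27, beside 0.03 over all genes, and it was 0.05 without PGC-1αf/f replicate 1.

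**Figure D1:**
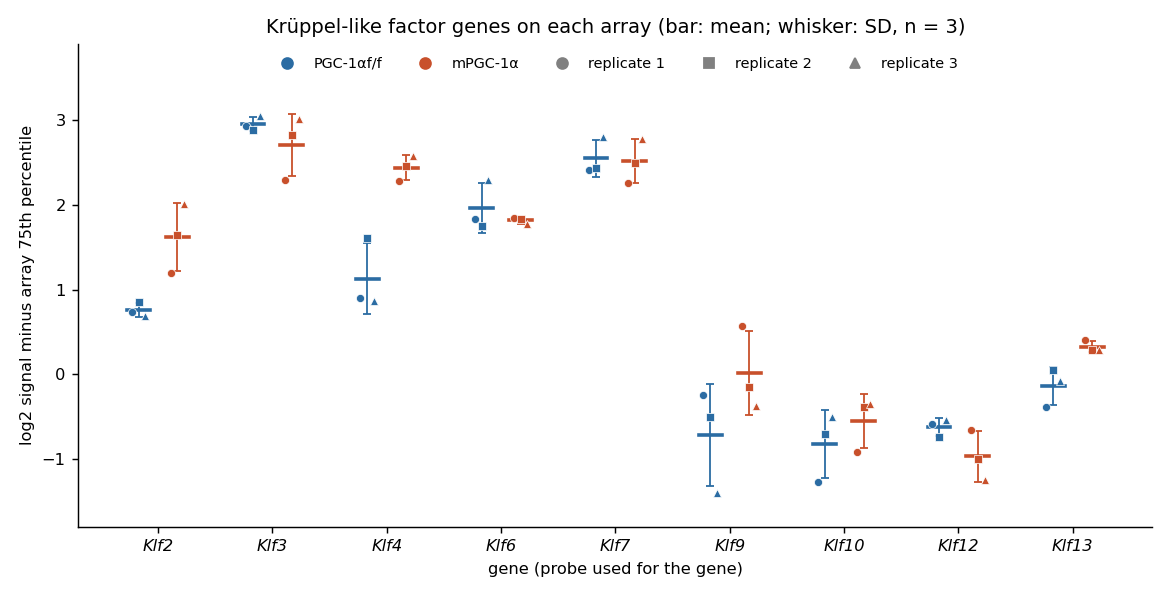
Scaled log2 signal, relative to the 75th percentile of the array (vertical axis) for the 9 members (horizontal axis), with PGC-1αf/f in blue and mPGC-1α in orange, markers for the replicates, bars for means and whiskers for SD (n = 3). Klf2, Klf4 and Klf13 show no overlap, with all mPGC-1α points above the PGC-1αf/f points, while the points of the other 6 genes overlap. Heights are not comparable between genes.

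Among the acetyltransferase-binding members, Klf4, a factor for monocyte differentiation and one of the reprogramming factors, was read by probe A_51_P213544. Its signal was 0.90, 1.61 and 0.87 in the controls, PGC-1αf/f microglia, and reached 2.28, 2.46 and 2.58 in mPGC-1α microglia. The mPGC-1α arrays lay close together, whereas PGC-1αf/f replicate 2 was clearly above the other controls and still below every mPGC-1α array. The means were 1.13 ± 0.42 and 2.44 ± 0.15 (SD, n = 3), a difference of 1.32 (SE 0.23, 95% interval 0.78 to 1.85). This difference had an unadjusted p of 0.00066 and an adjusted p of 0.097 in limma. It was 1.19 without PGC-1αf/f replicate 3, 1.25 without mPGC-1α replicate 3 and 1.12 without both.

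Klf2, which keeps endothelial cells and lymphocytes quiescent, was read by probe A_51_P144264. It gave 0.73, 0.85 and 0.69 in controls and 1.20, 1.65 and 2.01 in mPGC-1α microglia. Here the controls lay within a narrow range and the mPGC-1α arrays were spread out, the reverse of Klf4. Means of 0.76 ± 0.09 and 1.62 ± 0.41 (SD, n = 3) differed by 0.87 (SE 0.21, 95% interval 0.36 to 1.38), or 1.82-fold, with an unadjusted p of 0.00503 and an adjusted p of 0.164 in limma. Leaving out PGC-1αf/f replicate 3 gave 0.83, leaving out mPGC-1α replicate 3, the highest array, gave 0.67, and leaving out both gave 0.64.

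The remaining members of this class were similar in their means between the groups, with intervals that still allow a change in either direction. Klf6 (A_51_P451346) gave 1.83, 1.75 and 2.30 in controls and 1.85, 1.83 and 1.77 in mPGC-1α microglia. Only PGC-1αf/f replicate 3 stood away from the other arrays. The difference was -0.14 (SE 0.18, 95% interval -0.56 to 0.28, adjusted p = 0.703 in limma), and it was 0.03 without that array. For Klf7, known for its role in axon growth, the brighter probe (A_55_P2040996) gave 2.41, 2.44 and 2.80 in controls and 2.26, 2.50 and 2.78 in mPGC-1α microglia. This is a difference of -0.04 (SE 0.19, 95% interval -0.49 to 0.41, adjusted p = 0.932 in limma). Its dimmer probe (A_65_P06809) ranged from -1.16 to -0.56 in controls and from -0.95 to -0.78 in mPGC-1α microglia, inside the control range, and differed by -0.03 (SE 0.18, adjusted p = 0.941).

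The change of Klf2 and Klf4 was also set against Klf6, Klf7 and Klf3, whose groups overlapped, within each array, where the scaling of the array cancels. Klf4 minus Klf6 was higher by 1.46 in mPGC-1α microglia and Klf2 minus Klf6 by 1.01. Against Klf7, the changes were 1.35 for Klf4 and 0.91 for Klf2, and against Klf3 they were 1.56 and 1.11. In each of these 6 comparisons the groups did not overlap. The pairs were chosen after the values were seen, so they describe an unequal change within the family and carry no test.

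Both CtBP-binding members, which act as repressors, had lower means in mPGC-1α microglia, with overlapping groups. Klf3, a repressor studied in red cells, B cells and fat, gave 2.93, 2.89 and 3.05 in controls and 2.30, 2.82 and 3.01 in mPGC-1α microglia on its brighter probe (A_55_P1972842). Replicate 1 of mPGC-1α was the low array, and the other mPGC-1α arrays lay near the controls. The difference was -0.25 (SE 0.20, 95% interval -0.72 to 0.23, adjusted p = 0.551 in limma), and -0.04 without that array. The dimmer Klf3 probe (A_51_P492640) differed by -0.09 (SE 0.22, adjusted p = 0.863).

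Klf12, named for repressing the gene of the factor AP-2α, was read by both of its tested probes in the same direction. Probe A_52_P617636 gave -0.59, -0.74 and -0.54 in controls and -0.66, -1.0 and -1.25 in mPGC-1α microglia, where replicate 1 overlapped the controls. It differed by -0.35 (SE 0.18, 95% interval -0.77 to 0.08, adjusted p = 0.365 in limma). Probe A_52_P817975 gave -1.49, -0.31 and -0.39 in controls and -1.16, -1.63 and -1.65 in mPGC-1α microglia. On that probe PGC-1αf/f replicate 1 fell among the mPGC-1α arrays, and the difference was -0.75 (SE 0.33, 95% interval -1.54 to 0.04, adjusted p = 0.315 in limma). Without PGC-1αf/f replicate 1 it was -1.13. Without both replicates numbered 3 the probes differed by -0.16 and -0.49.

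The Sin3a-binding members all had higher means in mPGC-1α microglia. Klf13, known for activating the chemokine gene Ccl5 in T cells, gave -0.39, 0.05 and -0.08 in controls and 0.40, 0.29 and 0.29 in mPGC-1α microglia (A_55_P2022082). The mPGC-1α arrays nearly coincided, and the highest control lay below them. Means of -0.14 ± 0.23 and 0.33 ± 0.06 (SD, n = 3) differed by 0.47 (SE 0.16, 95% interval 0.10 to 0.83), or 1.38-fold, with an unadjusted p of 0.0202 and an adjusted p of 0.237 in limma. The value was 0.50 with PGC-1αf/f replicate 3 left out, 0.49 with mPGC-1α replicate 3 left out and 0.52 with both left out.

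Klf9, which glucocorticoids and thyroid hormone induce, varied widely between arrays. Its signal was -0.25, -0.50 and -1.40 in controls and 0.57, -0.15 and -0.37 in mPGC-1α microglia (A_65_P19780). Replicate 1 was the highest and replicate 3 the lowest array in both groups, and the groups overlapped. The difference was 0.73 (SE 0.36, 95% interval -0.12 to 1.59, adjusted p = 0.35 in limma), 0.39 without PGC-1αf/f replicate 3 and 0.93 without mPGC-1α replicate 3. Klf10, first described as an early gene induced by TGF-β, gave -1.27, -0.70 and -0.50 in controls and -0.92, -0.39 and -0.35 in mPGC-1α microglia (A_55_P2022074). Its difference of 0.27 (SE 0.25, 95% interval -0.32 to 0.87, adjusted p = 0.599 in limma) came to 0.05 without PGC-1αf/f replicate 1, the lowest array.

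By class, the median difference was 0.41 for the 4 acetyltransferase-binding members, 0.47 for the 3 Sin3a-binding members and -0.30 for the 2 CtBP-binding members. The classes hold few genes, so these medians are descriptions.

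**Figure D2:**
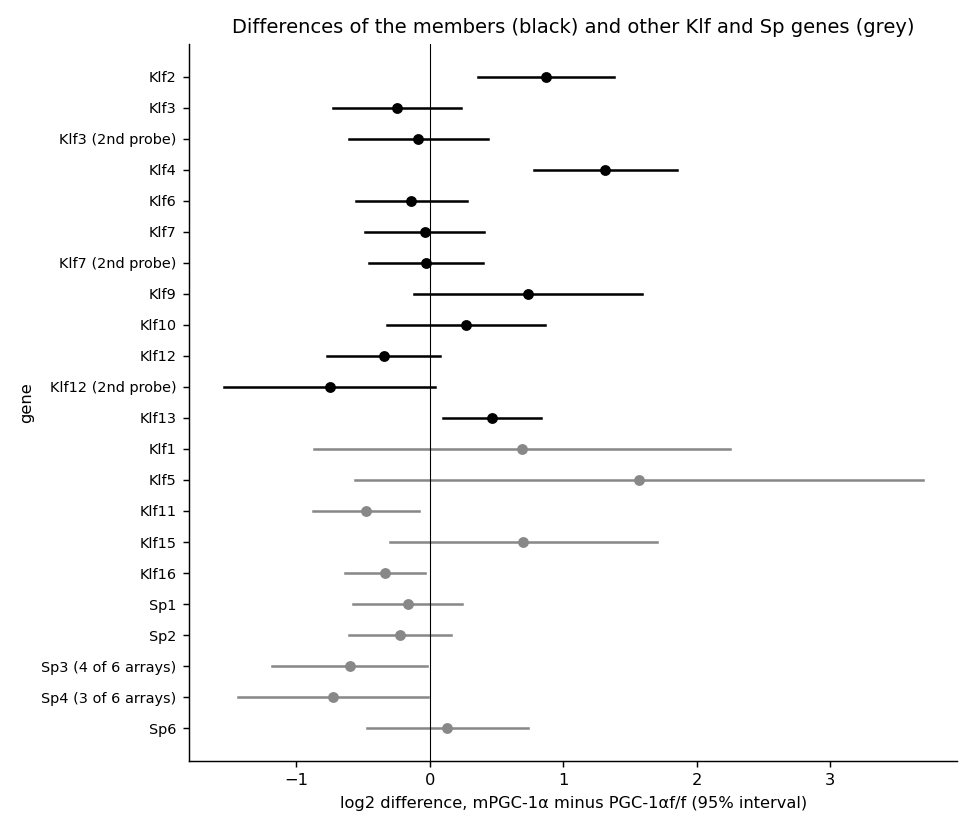
Log2 difference, mPGC-1α minus PGC-1αf/f (horizontal axis), with its 95% interval for every tested probe of the members (black) and for the other Klf and Sp genes (grey). The intervals of Klf2, Klf4 and Klf13 lie above 0 before adjustment, and those of Klf11, Klf16 and Sp3 below. Sp3 and Sp4 rest on 4 and 3 arrays. For Sp4 the only control array is PGC-1αf/f replicate 3, so its interval is not interpreted.

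Outside the 9 members, 8 other Klf genes were on the array. Of these, Klf8, Klf14 and Klf17 were not well above background throughout either group, and 0 of the other 5 passed an adjusted p of 0.05. At an unadjusted p under 0.05, 2 of the 5 were lower, against 5.71% of all genes. Both belong to the Sin3a-binding class, whose 3 members above had higher means. Klf11, a close relative of Klf10, was -2.47, -2.43 and -2.08 in controls and -2.63, -2.98 and -2.80 in mPGC-1α microglia, so the groups did not overlap. It differed by -0.48 (SE 0.17, adjusted p = 0.248 in limma). Klf16 also did not overlap, with -0.05, 0.11 and -0.05 in controls and -0.40, -0.25 and -0.36 in mPGC-1α microglia, and differed by -0.34 (SE 0.13, adjusted p = 0.269 in limma). Klf15, like Klf9 a target of glucocorticoids, ranged from -1.63 to -1.02 in controls and from -1.48 to 0.26 in mPGC-1α microglia, with a difference of 0.70 (SE 0.42, adjusted p = 0.423). Klf1 and Klf5 were well above background on all mPGC-1α arrays but on only 2 and 1 of the PGC-1αf/f arrays.

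The Sp factors share the zinc fingers of the family and bind GC boxes. Of 9 Sp genes, 4 were not well above background throughout either group. Of the others, Sp1, Sp2, Sp3 and Sp6 did not pass an adjusted p of 0.05. Sp3 was lower at an unadjusted p under 0.05 in limma on its 4 arrays. The share of all genes lower at that p, 5.71%, covers only genes with values on all 6 arrays. Sp4 had 1 control array and is therefore given by its values only. Sp1 differed by -0.17 (SE 0.17), Sp2 by -0.22 (SE 0.16) and Sp6 by 0.13 (SE 0.25), with overlapping groups for each. Sp3, with a usable spot on 4 arrays, was 1.28 and 1.32 in controls and 0.46 and 0.93 in mPGC-1α microglia (difference -0.60, SE 0.23, adjusted p = 0.292 in limma). Sp4 was 0.42 on PGC-1αf/f replicate 3, its only control array, and -0.44 and -0.18 on mPGC-1α replicates 2 and 3.

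ERK5 and its partners, which induce Klf2 and Klf4 in endothelium, had lower means in mPGC-1α microglia for 6 of the 7 genes measured, with 0 past an adjusted p of 0.05 and a median of -0.16. The groups did not overlap, with mPGC-1α lower, for 3 of the 7, against 10.8% of all genes. Mef2c, a MEF2 factor of microglia, was 0.71, 0.57 and 1.1 in controls and 0.20, 0.56 and 0.22 in mPGC-1α microglia. It differed by -0.47 (SE 0.19, adjusted p = 0.284 in limma), while a brighter Mef2c probe with values on 4 arrays differed by 0.17 (SE 0.32). Map3k2 and Map3k3, kinases above ERK5, differed by -0.31 (SE 0.14) and -0.21 (SE 0.15).

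Genes for the cofactors that the classes bind differed little in their means. Of 10 with a value on every array, 6 were higher and 4 lower by their means, 0 passed an adjusted p of 0.05, and the median was 0.04. Those with the largest differences were the acetyltransferase Kat2a at -0.29 (SE 0.17), the corepressor Sin3b at 0.28 (SE 0.15), and the acetyltransferase Kat2b at -0.26 (SE 0.23). A dimmer Sin3b probe differed by -0.13 (SE 0.15), so its probes disagreed in direction. Ubiquitin ligases that turn over Krüppel-like factors, such as Smurf1, Smurf2 and Itch, had lower means for 5 of 6 genes, with a median of -0.21 and 0 past an adjusted p of 0.05. Itch differed by -0.27 (SE 0.25), while a brighter probe had a value on 1 control array only, PGC-1αf/f replicate 3, at 1.67, beside 0.29 and 0.33 on mPGC-1α replicates 2 and 3. Smurf1 differed by -0.25 (SE 0.15) and Smurf2 by -0.21 (SE 0.13).

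Reported target genes of the family were split. Among 10 with a value on every array, 5 were higher and 5 lower by their means, with a median of 0.08. The cell cycle inhibitor Cdkn1a (p21), which Klf4 and Klf6 can activate and which p53 and many stresses also induce, rose and was the 1 gene that passed. It was -1.61, -1.63 and -1.06 in controls and 1.42, 1.70 and 1.59 in mPGC-1α microglia, a difference of 3.00 (SE 0.19, adjusted p = 0.00726 in limma). Cdkn1a no longer passed without PGC-1αf/f replicate 2 (adjusted p = 0.0612 in limma), mPGC-1α replicate 2 (0.0799) or mPGC-1α replicate 3 (0.0827). Its differences in these fits were 2.91, 2.94 and 3.00, and 2, 1 and 0 of all tested probes passed in them. With almost no probe passing, the lost call says little about Cdkn1a itself. Cdkn1a passed without both replicates numbered 3 (adjusted p = 0.0358 in limma), where 3 of all tested probes passed.

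Nos3, which Klf2 activates in endothelium, differed by 1.02 (SE 0.41, adjusted p = 0.286). It was lowest, at -2.74, on PGC-1αf/f replicate 3, the array with low endothelial and blood signals. S1pr1, another target of Klf2 and named here after its values were seen, went the other way. It was 1.22, 0.94 and 1.02 in controls and 0.37 and -0.38 on the mPGC-1α arrays with a usable spot, and differed by -1.07 (adjusted p = 0.171 over 5 arrays).

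**Figure D3:**
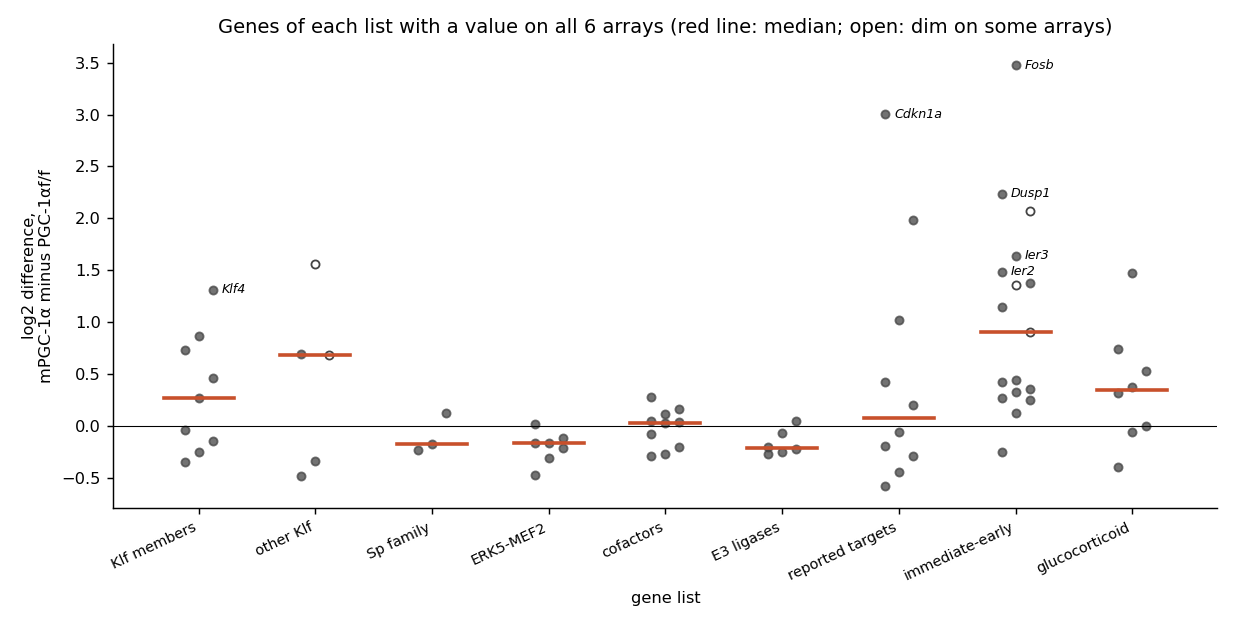
Log2 difference, mPGC-1α minus PGC-1αf/f (vertical axis), of each gene with a value on all 6 arrays, by gene list (horizontal axis), with the list's median as a red line and open points for genes not well above background on every array. Klf4 stands at 1.32 above the other members, and the genes past an adjusted p of 0.05 are Cdkn1a at 3.00, Fosb at 3.48 and Dusp1 at 2.24.

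Early-response and dissociation genes were read beside Klf2 and Klf4. Of 25 listed, 22 were tested and 2, Fosb and Dusp1, rose past an adjusted p of 0.05, which 0.0792% of all tested probes passed. Fosb, an AP-1 subunit, was -2.01, -2.33 and -1.45 in controls and 1.06, 1.81 and 1.77 in mPGC-1α microglia (difference 3.48, SE 0.29, adjusted p = 0.0169 in limma). Dusp1, a phosphatase of MAP kinases, was 0.60, 0.89 and 0.82 in controls and 2.80, 3.02 and 3.20 in mPGC-1α microglia (difference 2.24, SE 0.16, adjusted p = 0.0122 in limma). Neither call held in the fits without PGC-1αf/f replicate 2, mPGC-1α replicate 2 or mPGC-1α replicate 3 (adjusted p from 0.076 to 0.144 in limma, with differences of 2.14 to 2.30 for Dusp1 and 3.28 to 3.36 for Fosb), nor without both replicates numbered 3 (0.0694 for Dusp1 and 0.0677 for Fosb), and that of Fosb was also lost without PGC-1αf/f replicate 1 (0.0649). Of all tested probes, 2, 1 and 0 passed without PGC-1αf/f replicate 2, mPGC-1α replicate 2 and mPGC-1α replicate 3. Without both replicates numbered 3, 3 passed, and without PGC-1αf/f replicate 1, 16 passed. With so few probes passing, the lost calls say little about Fosb and Dusp1 themselves. A few other genes of the list hardly differed, such as Jund at 0.13, and Csrnp1 was lower by its mean, at -0.25, both named after their values were seen. The small early-response genes Ier3 and Ier2 differed by 1.64 (SE 0.23, adjusted p = 0.0728) and 1.49 (SE 0.23, adjusted p = 0.09). Over the 14 genes well above background on every array, 13 were higher and 1 lower by their means in mPGC-1α microglia, with a median of 0.44. Of all 11565 such genes, 6081 were higher and 5484 lower. The groups of 8 of the 14 did not overlap, with mPGC-1α higher, against 11% of all such genes. The mean level of the 14 genes was 0.37, 0.62 and 0.50 in controls and 1.37, 1.46 and 1.52 in mPGC-1α microglia. The part of this response in the values of Klf2 and Klf4 was not tested.

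Glucocorticoid-responsive genes, of interest beside Klf9 and Klf15, had a median of 0.35 over 8 genes, with 6 higher and 2 lower by their means and 0 past an adjusted p of 0.05. Ddit4 differed by 1.48 (SE 0.50, adjusted p = 0.242), Per1 by 0.74 (SE 0.25, adjusted p = 0.246), Tsc22d3 by 0.53 (SE 0.18, adjusted p = 0.248) and Errfi1 by -0.39 (SE 0.21, adjusted p = 0.375). A dimmer Tsc22d3 probe differed by 1.06 (SE 0.23, adjusted p = 0.134). The mean of these 8 genes was highest, at 2.50, on mPGC-1α replicate 1, where Klf9 and Klf15 were also highest, and lowest, at 1.61, on PGC-1αf/f replicate 3, where both were lowest among the controls. The order did not hold on mPGC-1α replicate 3, with the next highest mean, 2.21, but the lowest Klf9 and Klf15 of its group, and the part of this response in Klf9 and Klf15 was not tested.

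Because Klf2 and Klf4 are abundant in endothelium and in blood leukocytes, markers of these cells were read on the same arrays. In a bulk sample, more cells of a type and more RNA per cell cannot be told apart. Of 11 endothelial and mural markers, the 5 genes Pecam1, Cdh5, Tek, Rgs5 and Kcnj8 were not well above background throughout either group. The 5 well above background on every array had higher means in mPGC-1α microglia, with 0 past an adjusted p of 0.05. Acta2 was well above background on 2 of the 3 control arrays and is included only in the sum that follows. The summed signal of these 6 genes, in units of the array's 75th percentile, was 3.0 to 13.5 in controls and 13.2 to 17.2 in mPGC-1α microglia. Most of that sum is Ly6c1, at 3.34, 3.51 and 1.22 in controls and 3.53, 3.77 and 3.76 in mPGC-1α microglia on the log2 scale. The monocyte gene Ly6c2 of the leukocyte list gave similar values, 3.33, 3.55 and 1.24 in controls and 3.55, 3.83 and 4.01 in mPGC-1α microglia. Whether the Ly6c1 and Ly6c2 probes read separate transcripts was not tested. The mean log2 level of the 5 genes without Acta2, in which each weighs equally, was -0.09, -0.33 and -1.91 in controls and -0.57, 0.03 and 0.31 in mPGC-1α microglia. PGC-1αf/f replicate 3 was the lowest array, with Klf2 and Klf4 at 0.69 and 0.87, beside 0.73 and 0.90 on PGC-1αf/f replicate 1. On mPGC-1α replicate 1, where Klf2 and Klf4 were above every control array, 2 of the 5 genes (Cldn5 and Flt1) were below PGC-1αf/f replicates 1 and 2, 1 (Ly6c1) was above both, and 2 (Slco1a4 and Pdgfrb) lay between them.

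Blood leukocyte markers were 18.6 to 118.8 in summed signal over 11 genes in controls and 119.1 to 148.0 in mPGC-1α microglia, again with PGC-1αf/f replicate 3 the lowest. The mean log2 level of these 11 genes was 2.17, 2.62 and -0.18 in controls and 2.45, 2.71 and 2.92 in mPGC-1α microglia. By that mean, in which each gene weighs equally, the groups overlapped. All 11 had higher means in mPGC-1α microglia. The groups of 1 of them did not overlap, against 11% of all genes well above background on every array. Of 14 listed, 12 were tested and 0 passed an adjusted p of 0.05, while the B cell markers Cd79a and Ms4a1 were not well above background throughout either group. Border macrophage markers summed to 8.2 to 10.0 over 6 genes in controls and 8.8 to 15.6 in mPGC-1α microglia, and were highest on mPGC-1α replicate 3, where Klf2 and Klf4 were highest too. On mPGC-1α replicate 1 the sum was 8.8, below PGC-1αf/f replicates 1 and 2 at 10.0 and 9.2. Klf2 and Klf4 were above every control array there. All 7 border macrophage markers were tested, with 0 past an adjusted p of 0.05. Microglial markers summed to 93.5 to 113.8 over 6 genes in controls and 84.9 to 95.4 in mPGC-1α microglia. All 6 had lower means in mPGC-1α microglia with 0 past an adjusted p of 0.05, and 2 of them did not overlap, against 11% of all genes well above background on every array. One was Cx3cr1, the locus of the Cre, which differed by -0.51 (adjusted p = 0.194 in limma). The parts of endothelial cells, leukocytes and border macrophages in the levels of Klf2 and Klf4 were not tested.

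**Figure D4:**
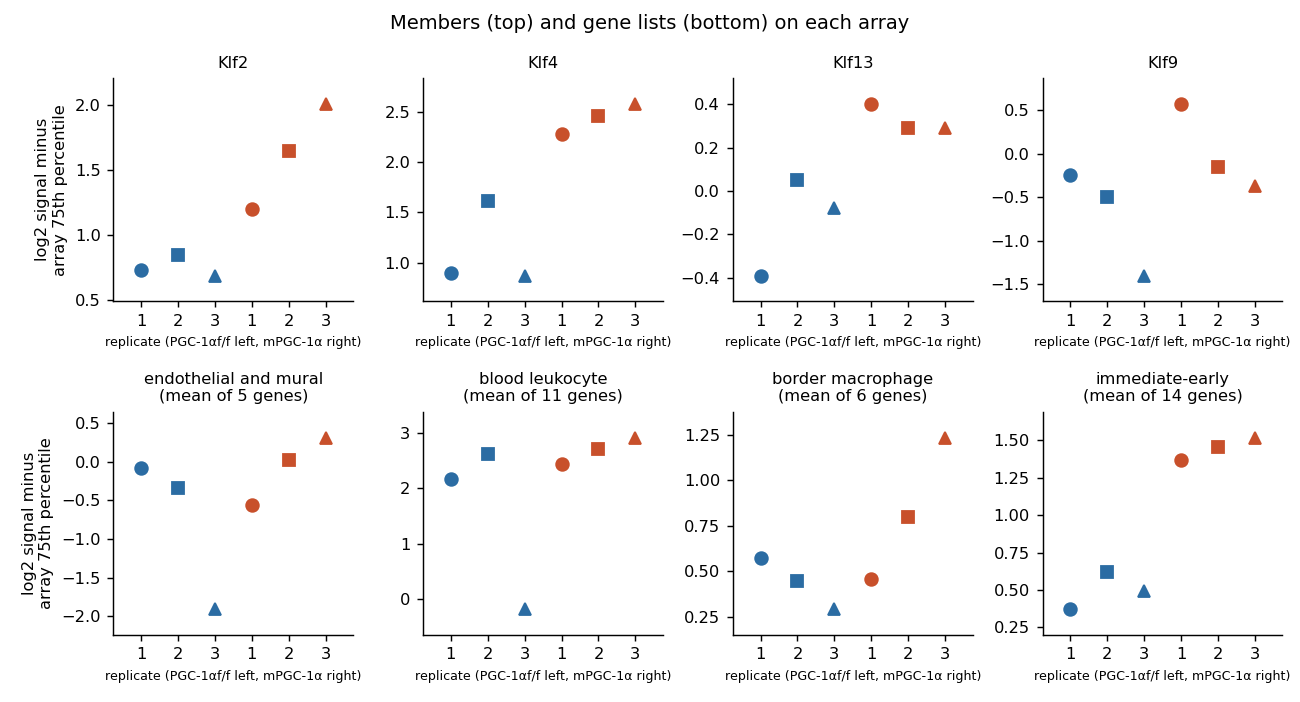
Scaled log2 signal, relative to the 75th percentile of the array (vertical axes, each with its own range) of Klf2, Klf4, Klf13 and Klf9 in the top panels and mean level of the genes of each list well above background on every array in the bottom panels, for the 3 PGC-1αf/f (blue) and 3 mPGC-1α (orange) arrays. PGC-1αf/f replicate 3 is far below the other arrays in the endothelial and mural and blood leukocyte panels and not in the Klf2 and Klf4 panels, and in the immediate-early panel the controls lie from 0.37 to 0.62 and mPGC-1α from 1.37 to 1.52.

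The genes whose levels followed Klf4 most closely over the 6 arrays, among 11564 genes, were H13, a protease of signal peptides (Pearson r = 0.996), Nudt8, of the Nudix hydrolases (r = 0.995), and Irs2, an adaptor of the insulin receptor (r = 0.991). Irs2 was 1.41, 1.61 and 1.37 in controls and 1.77, 1.78 and 1.89 in mPGC-1α microglia, with PGC-1αf/f replicate 2 the highest control, as for Klf4. Their own differences were smaller, at 0.26 for H13 and 0.35 for both Nudt8 and Irs2, with adjusted p of 0.326, 0.264 and 0.272. The arrays share a slide and fall into 2 groups, so the coefficients describe these arrays only.

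Among the other scalings, a shift by the array median moved the median of all tested probes from 0.00 to -0.14, and relative to it Klf2 was 0.87, Klf4 1.32 and Klf13 0.47. Over 20 alternatives in scaling, filters, models and arrays left out, the difference ranged from 0.93 to 1.56 for Klf4, from 0.64 to 1.08 for Klf2 and from 0.30 to 0.56 for Klf13. Klf3 and Klf12 stayed below 0, from -0.40 to -0.04 and from -0.55 (the mean over both Klf12 probes) to -0.16, and Klf6 and Klf7 took either sign. Klf2 and Klf4 passed an adjusted p of 0.05 under 1 of these alternatives, array weights, at 0.0148 and 0.0154, a fit in which 13.8% of all tested probes passed.

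**Figure D5:**
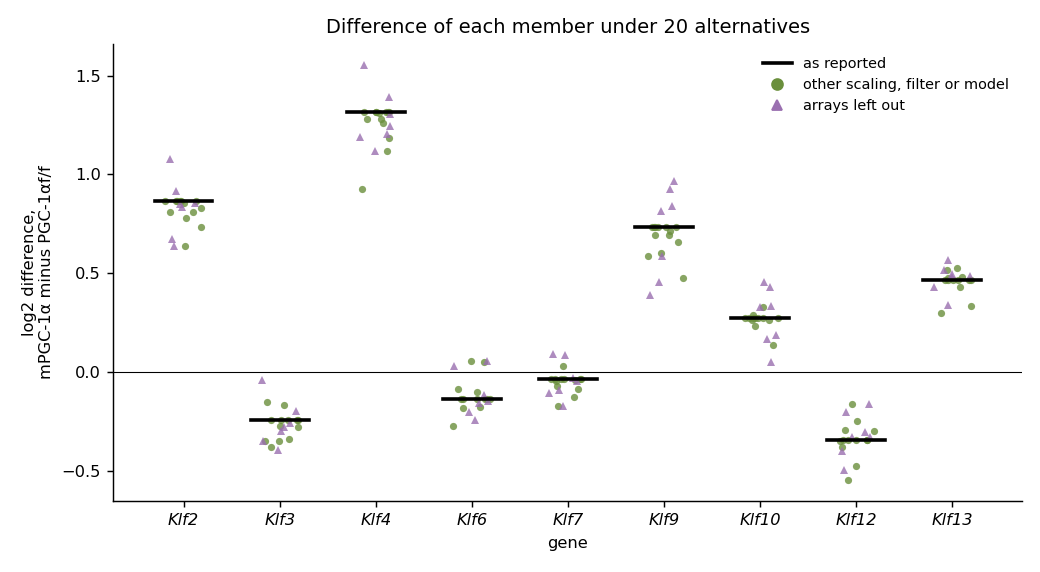
Log2 difference, mPGC-1α minus PGC-1αf/f (vertical axis), of each member (horizontal axis) as reported (black bar) and under 20 alternatives, with green points for other scalings, filters or models and purple triangles for fits without 1 or more arrays. Klf2, Klf4, Klf9, Klf10 and Klf13 stay above 0, Klf3 and Klf12 below, and Klf6 and Klf7 lie on both sides.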

How the data were processed

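The authors extracted RNA from the sorted microglia, amplified it, labelled it with Cy5 and hybridised each sample to a 1-colour Agilent array. The deposited scanner files hold an intensity per spot from Feature Extraction (version 11.5.1.1), already corrected for background, with flags for background, saturation and outliers. A deposited series table holds the same intensity without scaling between arrays and served as an alternative. GeneSpring normalization is named in the study's methods, with no gene-wise test.

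Control spots and spots with outlier flags were left out, spots of a probe were averaged, and log2 intensity was reduced by the array's 75th percentile. A probe counted as well above background if 0.5 or more of its spots on the array did, and was tested if so throughout at least 1 group (25333 of 56605 probes, 25257 of them with a p-value). Fits used lmFit and eBayes of limma 3.58.1 under R 4.3.3 (package data.table, version 1.17.8), two-sided, with Benjamini-Hochberg adjustment over all tested probes. The test was checked on simulated data. A gene stood for its brightest probe with values on all 6 arrays (12302 genes). The rank test of the general methods, run exactly with 3 arrays against 3, has 0.1 as its smallest p. Probes were named through their accession in a RefSeq gene list (33767 probes, 23462 genes), and the number of arrays limits the precision. The labels number the replicates without saying that each came from a separate mouse, so p-values measure the spread between these arrays, which may be technical.

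The members, lists and tests were chosen with earlier results of these data known. All members were named with every tested probe. From the lists around the family, genes past an adjusted p of 0.05 and up to 3 with the largest differences among those well above background on all 6 arrays were named, up to 4 from the early-response and glucocorticoid lists, and the 3 genes most like any member with a 2-fold change. Some genes of these lists are not reported here by name. Markers of neurons, astrocytes, oligodendrocytes and erythroid cells were also read. Python 3.11.15 with numpy 2.4.6, pandas 2.3.3 and matplotlib 3.10.9 drew the figures. Alternatives were a median shift, quantile normalization alone or after normexp (offset 50), the unscaled series values, no filter, a filter on all 6 arrays, outlier spots kept, eBayes with trend and robust, array weights, a replicate block, slide column taken as a random block, the 2 slide columns that hold both groups, the mean over a gene's probes, and each array left out. Leaving out both replicates numbered 3 was chosen after seeing the data.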

Additional observations from a re-analysis of the deposited data

How the results depend on the processing

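Under 20 alternatives, the differences of Klf2, Klf3, Klf4, Klf9, Klf10, Klf12 and Klf13 kept their sign, on the brighter probe or as the mean over a gene's probes. With array weights, a fit whose weights ran from 0.307 to 5.28 and did not fully converge, 2 members passed an adjusted p of 0.05 (3494 of all 25257 probes did), 0 had a 2-fold change at p under 0.05, and 7 genes of the lists around the family passed. Those lists had 3 genes past with the series table, where 1.81% of all probes passed. The count of members whose groups do not overlap was 6 in the slide columns with both groups and 6 without both replicates numbered 3, settings that keep the same 4 arrays, in which 42.8% of all genes did not overlap. It was 4 with quantile normalization, a median shift or normexp (24.2, 23.4 and 21.2% of all genes). It was 2 with the series table (9.69%), beside 3 in the main fit (22.9%). In unscaled intensity, Klf2 on PGC-1αf/f replicate 3 (3441) exceeded mPGC-1α replicate 1 (2938), and so did Klf13 (2018 against 1680). Leaving out 1 array in turn gave 3 to 5 such members (28.6 to 42.8% of all genes), 1 to 2 members with a 2-fold change (1.41 to 5.94% of all genes), 0 to 1 list genes past, and a median difference of the members from 0.0485 to 0.431. Reversed signs were small. Klf6 was 0.0486 with array weights, 0.0555 in the slide columns with both groups and 0.0555 without both replicates numbered 3, and ran from -0.246 to 0.0317 with 1 array left out. Klf7 was 0.0299 with array weights and ran from -0.173 to 0.0906 with 1 array left out. The dimmer Klf3 probe ran from -0.25 to 0.12 with 1 array left out. The dimmer Klf7 probe was 0.0210 with array weights, 0.0109 with slide column as the random block, 0.13 in the slide columns with both groups and 0.13 without both replicates numbered 3, and ran from -0.19 to 0.12 with 1 array left out. The dimmer Klf12 probe passed with array weights (-1.14, adjusted p = 0.0194 in limma), and ran from -1.13 to -0.54 with 1 array left out. The causes were not tested. Arrays with the same replicate number deviated together at r of 0.139, 0.127 and 0.0187, which was not taken as pairing. Replicates 1 and 2 share a slide column across the groups and replicates 3 do not, and slide column as the random block (consensus correlation 0.349) raised the probes past from 20 to 138. With the replicate block, 0 members and 0 list genes passed an adjusted p of 0.05, and 0 of all 25257 probes did, with adjusted p of 0.158 for Klf4, 0.0807 for Cdkn1a and Dusp1 and 0.0951 for Fosb. Signal over background limits Klf1 and Klf5, and the number of arrays limits all p-values.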

Other observations

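Oligodendrocyte markers well above background on every array had lower means in mPGC-1α microglia for 7 of 7 genes, with a median difference of -0.55. The groups of 4 of them did not overlap, against 11% of all such genes with mPGC-1α lower, and 0 passed an adjusted p of 0.05. Their mean level on PGC-1αf/f replicate 3 was 0.85, the highest of the 6 arrays. Neuronal, astrocyte and erythroid markers had medians of 0.09 over 7 genes, 0.07 over 7 genes and 0.11 over 3 genes, each with 0 past an adjusted p of 0.05.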
